A study of Vigna unguiculata with 30 samples.

Results

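The genes described here had less transcript at the later of 2 developmental stages, R3, than at the earlier, R1, in bottom canopy leaves of cowpea (Vigna unguiculata), while their mean levels in middle and top leaves stayed within a set band. They were chosen from measured values. Levels are in CPM, a gene's count as a share of all counts of its library scaled to 1e+06, and group values are means of 5 libraries plus 0.5. A gene on chromosomes 1 to 11 was taken if its mean CPM over 30 libraries was at least 5 and under 1000, if the bottom level at R1 was at least 2.5 times that at R3, if the R3 to R1 ratio lay between 0.67 and 1.5 in middle and in top leaves, and if the bottom level at R1 was within 0.5 to 2 times the middle level at R1. Of 31948 gene models, 26 met every term. The fall in bottom leaves and the evenness elsewhere are therefore what the genes were chosen for, and the values below describe them without testing them. No product names accompany the identifiers; genes are therefore described by identifier and position. Positions are those in the deposited counts, and the sources used here do not name their genome build. The label leaf was not checked against marker genes for the same reason.

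All plants were of the line IT97K-499-35, rooted in greenhouse soil under supplemental light, and leaf punches were taken at R3 (week 6.5 after planting) and at R1 (week 5.5). Each combination of top, middle or bottom position with a stage had 5 libraries of polyA RNA, 30 in all, with 10490354 to 17420944 counts each. Replicates are labelled biological, but separate plants are not stated, so p-values measure the spread between these samples. Bottom R1 replicate 2 and middle R3 replicate 4 were the lowest of their groups for 19 and 22 of the 26 genes, and several results below are also given without them. The series title names native promoters as its subject.

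Leaves at the bottom of a canopy are the oldest and the most shaded. In annual legumes they are usually the first to pass from carbon assimilation to senescence, a programme in which chlorophyll, ribosomes and proteins are dismantled and nitrogen is moved to developing pods. In the staging scale used for soybean, R1 marks the start of flowering and R3 the start of pod formation. In leaf RNA, fewer cells of a type and less transcript per cell cannot be told apart.

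Bottom leaves at R3 had the lowest mean of the 6 groups for all 26 genes, as the rule makes likely. The highest mean was in top leaves for 21 genes, in bottom leaves at R1 for 3 and in middle leaves at R1 for 2. The ratio of the R1 to the R3 level in bottom leaves ran from 2.51 to 4.02 (median 2.81). The R3 to R1 ratio ran from 0.714 to 1.45 in top leaves (median 0.931) and from 0.677 to 1.08 in middle leaves (median 0.734). In middle leaves 24 of the 26 ratios were below 1 and 17 were under 0.8. Without middle R3 replicate 4 these counts were 23 and 10, and the median ratio was 0.825. The 10845 other genes that met every term except the fall had a median ratio of 1.00 in middle leaves and 49% of them were below 1. In top leaves their median ratio was 0.911 and 72.1% were below 1, beside 18 of the 26 genes. Just inside the threshold was a gene with a bottom ratio of 2.51, at 19.6 CPM at R3 and 49.1 CPM at R1 (each with 0.5 added), and just outside it a gene with 2.499, at 3.76 CPM at R3 and 9.41 CPM at R1.

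**Figure D1:**
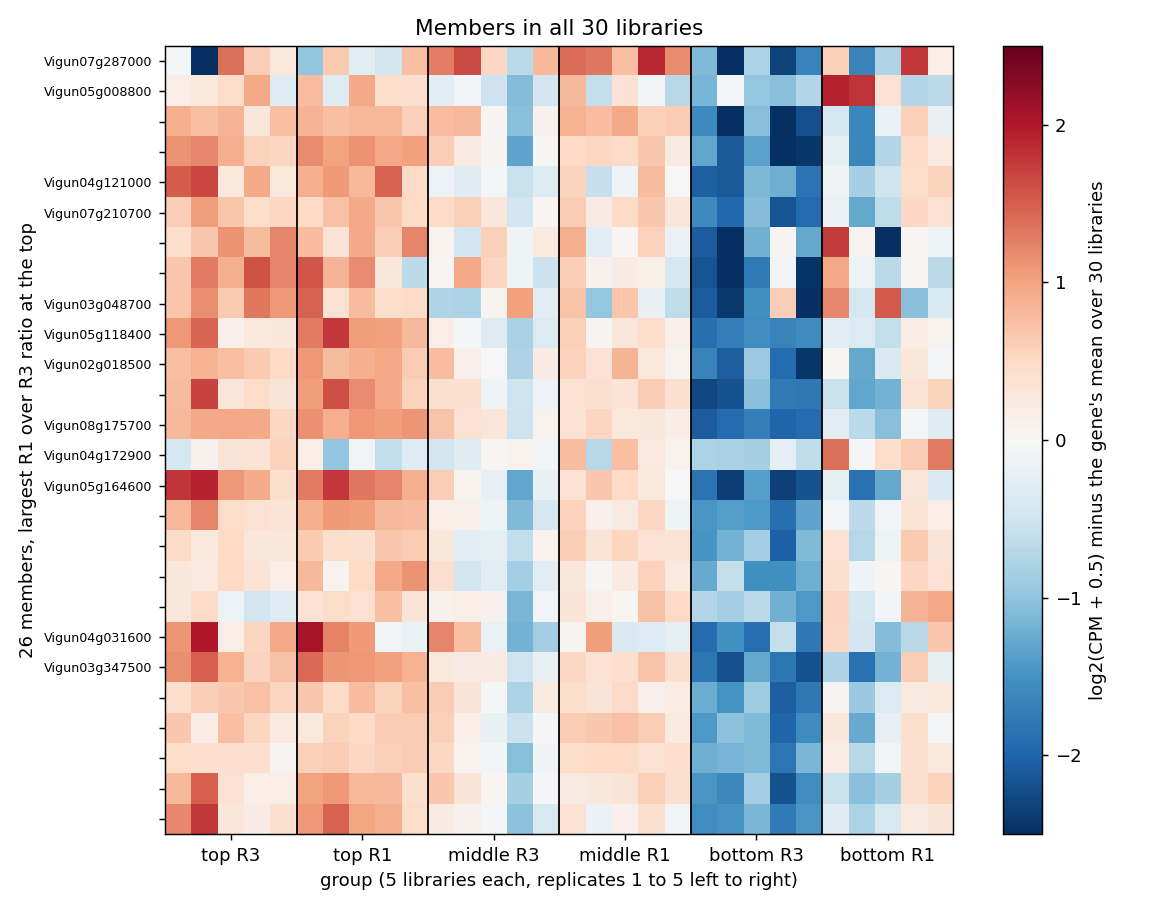
Level of the 26 genes (rows, largest bottom ratio at the top; identifiers only for genes named in the text) in 30 libraries (columns), as log2(CPM + 0.5) minus each gene's mean over all libraries. Bottom R3 libraries are low for nearly all genes, top libraries are high for most, and middle R3 replicate 4 and bottom R1 replicate 2 stand lower than the rest of their groups.

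The terms on the upper leaves, above all that on middle leaves, removed most candidates. Of 14641 genes in the range of abundance, 253 had a bottom R1 level at least 2.5 times the R3 level, and the middle ratio of 197 of these lay below the band while 1 lay above it. The top ratio lay below the band for 105 and above it for 14. Bottom leaves at R1 were under 0.5 times the middle level for 51 and over 2 times for 30. A further 139 genes met every other term with a bottom ratio of 2 to under 2.5. The same rule turned round, with R3 at least 2.5 times R1 in bottom leaves, was met by 78 genes.

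In the fit across all genes, 24 of the 26 genes passed the test for a lower level in bottom leaves at R3 than at R1. This was edgeR's quasi-likelihood test on the counts, with a threshold of 0.05 on p-values adjusted by Benjamini-Hochberg over all 20284 genes tested. All 26 passed the filter on low counts, and 8.53% of all genes tested were called lower. Because the rule used this contrast, nothing is read from the count. The log2 fold changes (R3 over R1) of the 26 ran from -2.04 to -1.35. DESeq2 called all 26 lower (10.8% of all genes), and in an edgeR fit of the 2 bottom groups alone 14 passed (3.64%). The lowest count of any of the 26 genes in a library was 17.

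The ranges of the 5 R3 and the 5 R1 bottom libraries did not overlap for 10 of the 26 genes, with every R3 library below every R1 library; this held for 4.85% of all genes tested. For the other 16 genes at least 1 R1 library was as low as some R3 library. Within bottom leaves at R1, the highest library was over 3 times the lowest for 15 genes, and at R3 this was so for 6. How common such a spread is among all genes was not counted.

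Vigun08g175700 (chromosome 8, 34601667 to 34604041, minus strand, 4 exons, 864 bases of exon) had the smallest adjusted p of the 26 in bottom leaves. Its level in bottom leaves was 3.39, 3.81, 4.5, 3.63 and 3.85 CPM at R3 and 13.2, 9.82, 7.35, 15.3 and 12.9 CPM at R1 (R3 over R1: log2 fold change of -1.61 with an SE of 0.22, edgeR adjusted p = 0.00011). The R3 libraries lay close together and all below the R1 libraries. In middle leaves it was at 26.4, 20.5, 19.7, 10.9 and 16.9 CPM at R3 and 20.6, 23.3, 19.2, 19.4 and 18.2 CPM at R1. In top leaves it was at 28.2, 31.3, 31.6, 31.1 and 23 CPM at R3 and 35.8, 30.5, 34.6, 33.6 and 34.8 CPM at R1. The stages overlapped at both upper positions, and only 1 middle R3 library, replicate 4, came down to the range of bottom leaves at R1.

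Vigun04g121000 (chromosome 4, 31017583 to 31019675, minus strand, 2 exons, 1692 bases of exon) had the largest fold change among called genes whose bottom groups did not overlap. It was a weakly expressed gene, at 1.34, 1.27, 2.97, 2.76 and 1.6 CPM in bottom leaves at R3 and 6.58, 3.73, 4.87, 9.82 and 10.7 CPM at R1 (R3 over R1: log2 fold change of -1.84 with an SE of 0.34, edgeR adjusted p = 0.0013). Its highest R3 library reached 2.97 CPM, below the lowest R1 library at 3.73 CPM. Middle leaves held 6.32, 5.65, 6.9, 4.61 and 5.48 CPM at R3 and 10.7, 4.56, 6.58, 12.7 and 6.99 CPM at R1, overlapping ranges. Top leaves held 21, 23.4, 8.58, 14.1 and 8.52 CPM at R3 and 13.6, 15.3, 13, 20.4 and 10.1 CPM at R1, also overlapping.

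The pair with the highest mean level differed in how bottom leaves at R1 behaved. Vigun05g008800 (chromosome 5, 737460 to 738357, minus strand, 1 exon, 898 bases of exon) was at 126, 279.5, 146, 136 and 170.2 CPM in bottom leaves at R3 and at 1084, 989, 370.2, 172 and 180.0 CPM at R1 (R3 over R1: log2 fold change of -1.69 with an SE of 0.42, edgeR adjusted p = 0.0084). R1 replicates 1 and 2 were far above the other three, and replicates 4 and 5 lay within the R3 range. Without bottom R1 replicate 1 the log2 fold change was -1.23, and in a fit of the 2 bottom groups alone its adjusted p was 0.074. Vigun04g172900 (chromosome 4, 39686938 to 39688931, plus strand, 2 exons, 1907 bases of exon) was at 171, 170.4, 168, 251 and 192 CPM at R3 and at 772, 292, 405, 463 and 737 CPM at R1, without overlap (R3 over R1: log2 fold change of -1.49 with an SE of 0.27, edgeR adjusted p = 0.0011). Of the 26 it had the highest R3 to R1 ratio in top leaves, 1.45, with 219, 322, 374, 379 and 444 CPM at R3 and 335, 151, 284, 193 and 238 CPM at R1 (R3 over R1: log2 fold change of 0.73 with an SE of 0.27, edgeR adjusted p = 0.16).

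Other genes were singled out after their values were seen. Vigun07g287000 (chromosome 7, 40000107 to 40001191, plus strand, 2 exons, 731 bases of exon) had the largest bottom ratio, 4.02, on widely spread libraries. It was at 21.9, 7.73, 27.5, 9.21 and 14.8 CPM at R3 and at 72.8, 14.8, 28.3, 164 and 54.2 CPM at R1 (R3 over R1: log2 fold change of -2.04 with an SE of 0.66, edgeR adjusted p = 0.037). R1 replicate 2 lay inside the R3 range and replicate 3 just above it, and without R1 replicate 4 the log2 fold change was -1.37 and the adjusted p 0.17; the call also ended without bottom R1 replicate 1 (0.071), without R3 replicates 2, 4 and 5 (0.066, 0.096 and 0.076), and when only the bottom libraries were fitted (0.076). Vigun03g048700 (chromosome 3, 3876393 to 3878608, plus strand, 5 exons, 1770 bases of exon) was 1 of the 2 genes that missed the threshold in edgeR, with 4.81, 3.69, 7.19, 33.6 and 2.73 CPM at R3 and 50.7, 15.9, 63.9, 10.3 and 16.6 CPM at R1 (R3 over R1: log2 fold change of -1.59 with an SE of 0.56, edgeR adjusted p = 0.051). R3 replicate 4 alone stood inside the R1 range, and without it the edgeR adjusted p was 0.0029 at a log2 fold change of -2.73; it passed as well without bottom R1 replicate 2, 4 or 5 (0.036, 0.045 and 0.044) and in DESeq2 (0.020). The other was Vigun04g031600 (chromosome 4, 2561395 to 2569283, plus strand, 13 exons, 2457 bases of exon), at 39, 52.1, 39.4, 98.2 and 43.2 CPM at R3 and 214, 107, 70, 91.8 and 239 CPM at R1 (R3 over R1: log2 fold change of -1.42 with an SE of 0.51, edgeR adjusted p = 0.057). Its R3 replicate 4 was likewise the highest of its group and overlapped the R1 libraries, and without it the edgeR adjusted p was 0.048; without bottom R1 replicate 2 or 3 it was 0.049 and 0.044, and in DESeq2 0.027.

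**Figure D2:**
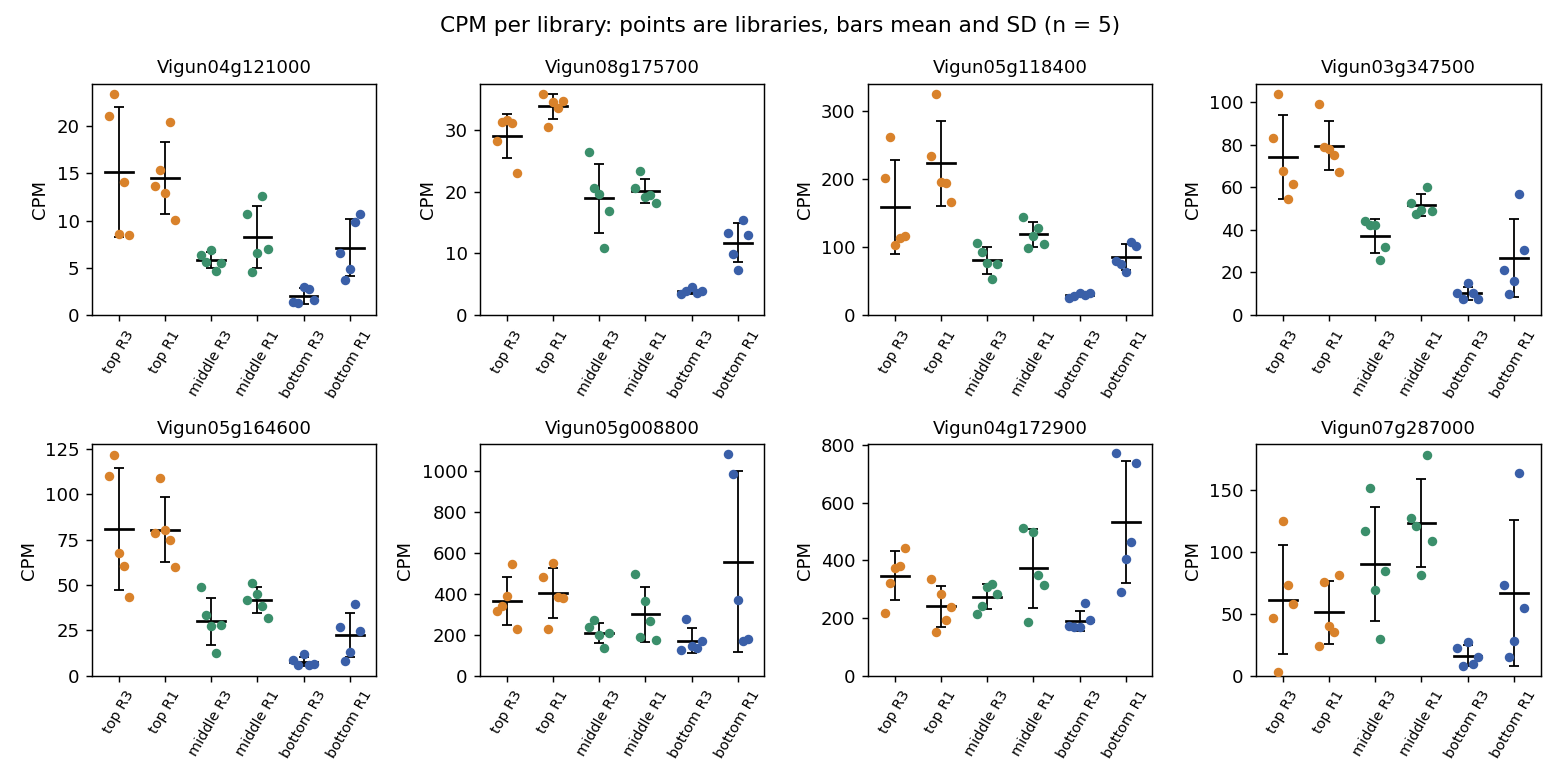
CPM of the 7 genes named by rule and of Vigun07g287000 in each library (points, replicates 1 to 5 from left to right), with mean and SD of 5 libraries (bars), for R3 and R1 at each position. The bottom R3 group has the lowest mean in each panel, while the bottom R1 points of Vigun05g008800 and Vigun07g287000 spread over most of their panels.

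Whether the fall was particular to bottom leaves is a question about the difference between stage effects. None of the 26 genes passed that test in edgeR, against middle leaves or against top leaves, and neither did any other gene (0% of 20284 in each). A fall confined to bottom leaves is thus what the rule selected and not what this test called. At an unadjusted p under 0.05 the counts were 22 of 26 against middle leaves and 26 of 26 against top leaves, beside 4.57% and 15.2% of all genes tested. The differences of the log2 stage effects, bottom minus middle, ran from -1.70 to -0.87 with a median of -1.21, and bottom minus top from -2.45 to -1.19 with a median of -1.58. The median over all genes tested was 0.00 and -0.01. These contrasts too were used by the rule. DESeq2 called 1 gene against middle leaves and 16 against top leaves, where it called 6 and 470 of all genes; the 16 were all lower, beside 1.57% of all genes called lower.

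The gene called by DESeq2 against middle leaves was Vigun08g175700, whose edgeR adjusted p was 0.34 against middle and 0.052 against top leaves. Without bottom R1 replicate 2, 14 of the 26 genes passed in edgeR against top leaves, beside 1.15% of all genes called lower in that fit, and the same fit called none against middle leaves. Against top leaves 2 passed without bottom R1 replicate 3, where 0.00972% of all genes were called lower. Without top R3 replicate 1 or 2, 2 passed as well (0.044% and 0.21% of all genes). Without bottom R3 replicate 2 or 4, 1 passed (0.0243% and 0.00975%). Without middle R3 replicate 4, Vigun08g175700 passed against middle leaves (edgeR adjusted p = 0.0082). Taken alone, the test between stages was passed by none of the 26 genes in top leaves (0.799% of all genes called higher and 0.759% lower) or in middle leaves (1.06% and 1.42%). At an unadjusted p under 0.05 there were 1 gene in top and 2 in middle leaves, beside 15.5% and 20.6% of all genes. DESeq2 called none of the 26 at either position. Of all genes it called 2.64% higher and 1.65% lower in top leaves, and 3.63% and 3.52% in middle leaves. The rule kept the ratio of the stage means within a band at both positions, so few calls there were likely in any fit. Nothing is therefore read from the counts for the stages in top and middle leaves.

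**Figure D3:**
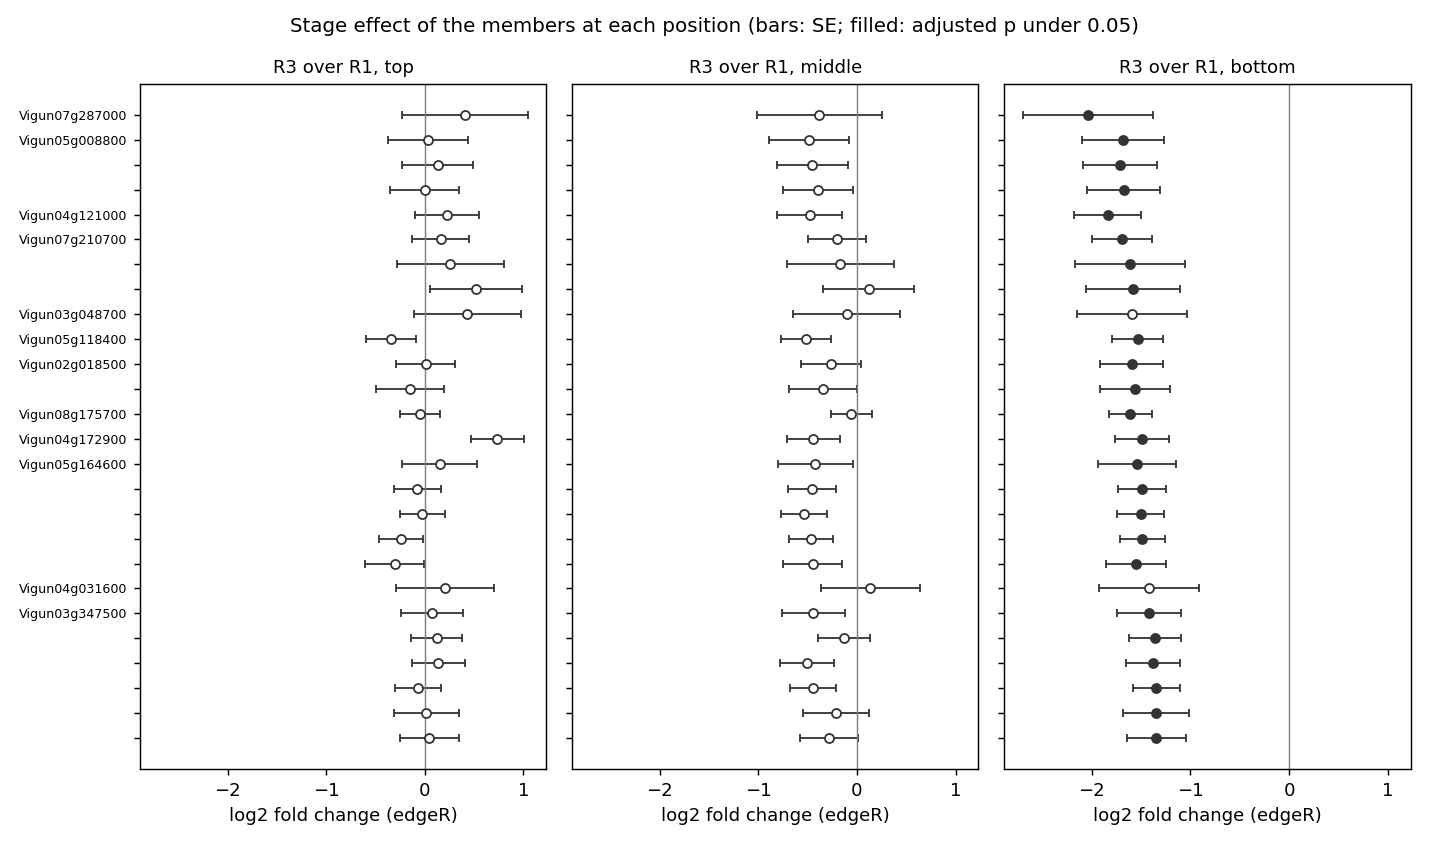
Log2 fold change of R3 over R1 (x axis, edgeR, bars SE) of the 26 genes (y axis, largest bottom ratio at the top) in top, middle and bottom leaves; filled points passed an adjusted p under 0.05. The bottom estimates lie between -2.04 and -1.35, the middle estimates mostly below 0, with a median of -0.41, and the top estimates on both sides of 0.

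The rule sets no ratio between top and middle leaves, but it used the means of all 4 of these groups, in the terms on stage and in the term that ties middle leaves at R1 to bottom leaves. The comparison is therefore not independent of how the genes were chosen and is given as a description. In bottom leaves at R1 the 26 genes had a median of 0.765 times the middle level, and the other genes of the rule 1.18 times. At R3, 7 of the 26 genes were higher in top leaves and none was lower, where 4.79% of all genes tested were called higher and 1.56% lower. Among the 10845 other genes of the rule 2.56% were called higher at R3 and 3.31% at R1. The estimate was above 0 for 25 of the 26, with a median log2 fold change of 0.78, beside 0.00 for all genes tested and -0.04 for the other genes of the rule. At R1, 2 genes were higher in top leaves and none was lower, where 6.8% of all genes were called higher and 4.65% lower, and the estimate was above 0 for 22 of the 26 (median 0.46). In CPM, the top mean exceeded the middle mean for 25 genes at R3 and 23 at R1, against 29.8% and 48.8% of the other genes of the rule.

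These calls depended on single libraries, and so did the share of all genes called. At R3 no gene passed without middle R3 replicate 4 or top R3 replicate 2, where 0.375% and 0.323% of all genes were called higher. Without middle R3 replicate 5, 1 passed (1.06% of all genes higher). Without top R3 replicate 1, 3 passed (1.88%), and without middle R3 replicate 3, 4 passed (2.46%). Without middle R3 replicate 1, 11 passed (6.54% of all genes higher in that fit). In a fit of the 2 groups alone no gene passed at R3, where 0.152% of all genes were called higher. At R1 such a fit called 9 genes higher and 1 lower in top leaves, beside 11% and 8.83% of all genes. At R1 no gene passed without middle R1 replicates 3, 4 or 5 or without top R1 replicate 2. In these fits 3.41%, 4.21%, 3.85% and 3.46% of all genes were called higher. Without top R1 replicate 1 or 3, 1 passed (3.75% and 5.15% of all genes higher). With library sizes unscaled the median of all genes moved to -0.13 (log2) at R3. In that fit 7 genes were higher, beside 4.08% of all genes called higher and 3.54% lower.

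At R3 the largest called difference between top and middle leaves without overlap was that of Vigun04g121000, whose top libraries were all above its middle libraries (log2 fold change of 1.48 with an SE of 0.33, edgeR adjusted p = 0.016). It was followed by Vigun03g347500 (chromosome 3, 54755923 to 54758247, minus strand, 2 exons, 2165 bases of exon), at 83.1, 104, 67.5, 54.4 and 61.6 CPM in top and 44, 42.4, 42.1, 25.6 and 32 CPM in middle leaves (top over middle: log2 fold change of 1.09 with an SE of 0.32, edgeR adjusted p = 0.04). The lowest top library of Vigun03g347500 stood above its highest middle library. An exon of this gene overlaps that of another gene model, so its counts are uncertain. Groups did not overlap, with top above middle, for 3 of the 26 genes at R3 and for 9 at R1, beside 1.93% and 8.12% of all genes tested. For Vigun04g121000 the call ended without top R3 replicate 2 (edgeR adjusted p = 0.072) or middle R3 replicate 4 (0.062), and for Vigun03g347500 without any of top R3 replicates 1 and 2 and middle R3 replicates 2 to 5 (0.057 to 0.15).

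The 2 genes called at R1 were Vigun05g118400 (chromosome 5, 12733264 to 12740379, plus strand, 7 exons, 1434 bases of exon) and Vigun08g175700. Vigun05g118400 was at 234, 325, 196, 194 and 166 CPM in top and 144, 98.9, 117, 128 and 104 CPM in middle leaves at R1 (top over middle: log2 fold change of 0.89 with an SE of 0.25, edgeR adjusted p = 0.025). Its top libraries all exceeded its middle ones, top replicate 2 by the most, and without that library the edgeR adjusted p was 0.11; without middle R1 replicate 3, 4 or 5 it was 0.053, 0.052 and 0.065. At R3 it was at 201, 262, 103, 114 and 116 CPM in top and 106, 92.1, 75.8, 53.5 and 74.8 CPM in middle leaves, with 1 top library inside the middle range (log2 fold change of 1.06 with an SE of 0.26, edgeR adjusted p = 0.02). That call ended without top R3 replicate 2 or middle R3 replicates 4 or 5 (edgeR adjusted p = 0.097, 0.070 and 0.054). In bottom leaves it was at 25.2, 28.2, 31.9, 29.3 and 31.5 CPM at R3 and 79.3, 74.3, 62.4, 108 and 101 CPM at R1, where the R3 libraries varied little and none reached the R1 range. Vigun08g175700 had its 5 top libraries above its 5 middle libraries at R1 (log2 fold change of 0.70 with an SE of 0.21, edgeR adjusted p = 0.029), a call that ended without any of middle R1 replicates 3, 4 and 5 or top R1 replicates 1, 2 and 3 (adjusted p = 0.054 to 0.074).

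**Figure D4:**
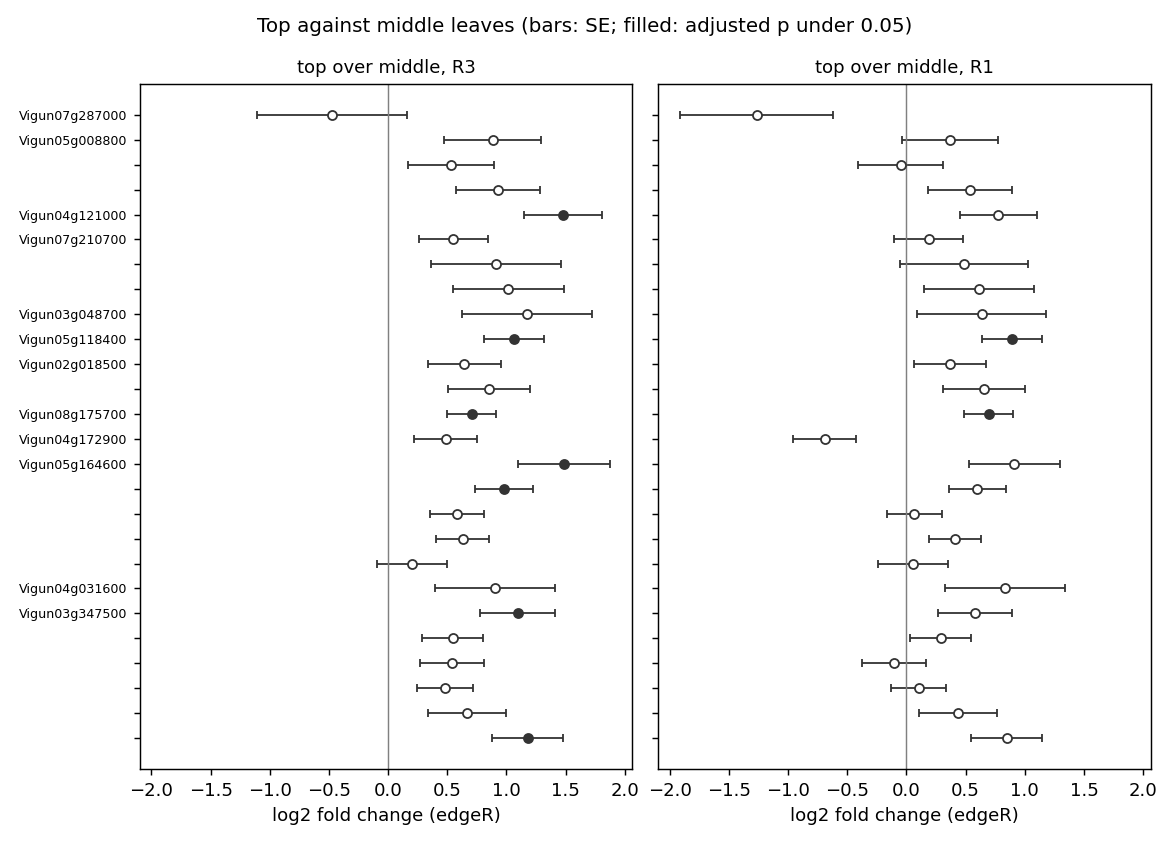
Log2 fold change of top over middle leaves (x axis, edgeR, bars SE) of the 26 genes (y axis, largest bottom ratio at the top) at R3 and R1; filled points passed an adjusted p under 0.05. All but 1 estimate at R3 and all but 4 at R1 lie above 0, and 7 and 2 of them passed.

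Already at R1, most of the 26 genes were lower in bottom than in top leaves. The means were ordered top over middle over bottom for 19 of the 26 genes at R1, an order held by 15.9% of the other genes of the rule. The test of top against bottom leaves at R1 called 17 genes higher and 1 lower at the top, beside 22.2% and 20.8% of all genes tested. This contrast uses the bottom R1 libraries, which the rule required to be high relative to R3 and near the middle level, so it is given as a description. The 5 top and 5 bottom libraries did not overlap, with top above, for 11 of the 26 genes, beside 12.2% of all genes tested. The median log2 fold change was 1.01 for the 26 genes and 0.01 for all genes tested.

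The gene with the largest difference was Vigun05g164600 (chromosome 5, 26875378 to 26876272, plus strand, 1 exon, 895 bases of exon), at 78.5, 109, 80.3, 74.9 and 60 CPM in top and 27, 8.29, 12.8, 39.3 and 24.6 CPM in bottom leaves at R1 (top over bottom: log2 fold change of 1.98 with an SE of 0.39, edgeR adjusted p = 0.00035). The ranges were far apart, and the middle libraries, at 41.4, 51.1, 45.1, 38.3 and 31.8 CPM, lay between them, apart from replicates 4 and 5, which were below the highest bottom library. At R3 it was at 110.2, 122, 67.4, 60.6 and 43.2 CPM in top, 48.7, 33.6, 27.5, 12.6 and 27.7 CPM in middle and 8.44, 5.8, 11.8, 5.93 and 6.58 CPM in bottom leaves. Next came Vigun03g347500, at 99, 78.8, 78, 75.1 and 67.3 CPM in top and 21.2, 9.66, 15.8, 56.7 and 30.7 CPM in bottom leaves at R1 (top over bottom: log2 fold change of 1.68 with an SE of 0.32, edgeR adjusted p = 0.00025), the highest bottom library being replicate 4. Vigun04g172900 was the gene called lower at the top (log2 fold change of -1.04 with an SE of 0.27, edgeR adjusted p = 0.0032), with its highest top library, replicate 1, above the lowest bottom library, replicate 2.

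Many of the 26 genes varied together from library to library within groups. Across 30 libraries, after each gene was centred within its group, the median Pearson correlation over the 325 pairs of genes was 0.445 (lowest -0.48, highest 0.921), and over all pairs of the other 10845 genes of the rule it was 0.131; 80.9% of the 325 were above 0. Without bottom R1 replicate 2 and middle R3 replicate 4 the median over 28 libraries was 0.28 (lowest -0.668, highest 0.935), beside 0.121 for the other genes. The libraries are shared by all pairs, and scaling and composition of a library act on all genes at once. The tightest pair was Vigun05g118400 with Vigun07g109800 (0.921), a pair picked after its value was seen. Vigun03g048700 (median correlation with the others -0.289) and the abundant Vigun05g008800 (-0.109) had negative medians, and Vigun04g172900 (0.0455) was close to unrelated.

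The same libraries stood apart for most genes. In bottom leaves at R1, replicate 2 was the lowest of its group for 19 of the 26 genes and replicate 4 the highest for 14. In middle leaves at R3, replicate 4 was the lowest for 22 and replicate 1 the highest for 16. In bottom leaves at R3, replicate 3 was the highest for 16 genes, and in top leaves at R3 replicate 2 was for 13. The median deviation of the 26 genes from their group mean was -0.77 (log2) in bottom R1 replicate 2 and -0.69 in middle R3 replicate 4. Bottom R1 replicate 2 also had the highest TMM scaling factor of its group, 1.23 (the others 1.04 to 1.13), and the smallest share of counts in its 10 most abundant genes, 4.98% (the others 5.59% to 7.27%). Middle R3 replicate 4 had a factor of 1.07 (the others 0.843 to 1.04) and a share of 6.30% (the others 7.90% to 11%). The part of these library properties in the results was not tested.

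Summed over the 24 genes other than Vigun05g008800 and Vigun04g172900, the level in bottom leaves was 386 ± 71.4 CPM at R3 and 1103 ± 347 CPM at R1 (SD, n = 5 each). In middle leaves the sum was 1205 ± 391 CPM at R3 and 1479 ± 142 CPM at R1, and in top leaves 1977 ± 404 CPM at R3 and 2082 ± 375 CPM at R1. The highest bottom R3 library reached 473 CPM and the lowest bottom R1 library 676 CPM, so these did not overlap. Middle R3 replicate 4, at 689 CPM, stood beside that lowest R1 library and apart from the other middle R3 libraries, which held 1006 to 1666 CPM. The sum is of genes chosen for this pattern and is given without a test.

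**Figure D5:**
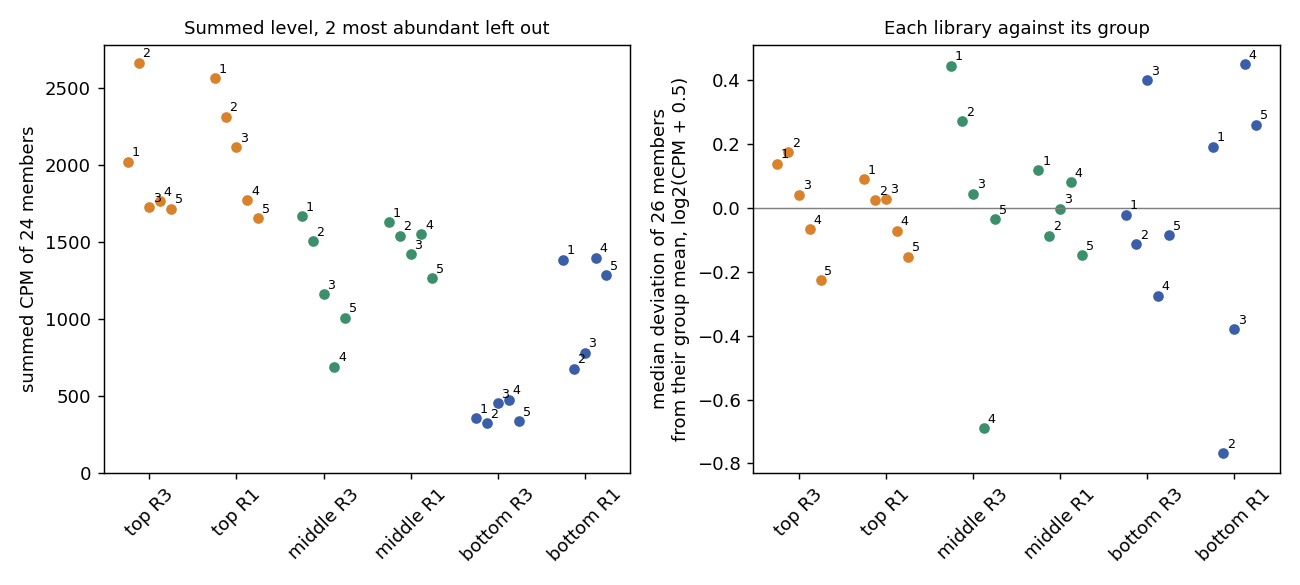
Left, summed CPM of 24 genes in each library; right, median deviation of the 26 genes from their group mean in log2(CPM + 0.5), with replicate numbers beside the points. On the left all bottom R3 libraries lie under 500 CPM; on the right bottom R1 replicate 2 (-0.77) and middle R3 replicate 4 (-0.69) lie lowest.

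The rule was checked by choosing genes anew without the 6 libraries of a replicate number. The bottom ratio was then read in the 2 bottom libraries left out. The sets chosen without numbers 1 to 5 shared 12, 19, 22, 9 and 14 genes with the 26. Their ratios therefore describe the rule and not the 26 genes. The ratio of R1 to R3 in the left-out pair had a median of 2.74 over the 18 genes chosen without number 1, 1.4 over the 51 without number 2, 1.21 over the 91 without number 3, 2.35 over the 31 without number 4 and 3.5 over the 26 without number 5. All genes of the rule had medians of 0.938 to 1.11 in the same libraries. In the chosen libraries the medians were 2.72 to 2.85, so the left-out fall was as large for numbers 1 and 5, somewhat smaller for number 4 and much smaller for numbers 2 and 3. The middle ratio of R1 to R3 in the left-out pairs 1 to 5 was 1.11, 1.19, 1.34, 2.11 and 1.09, so in pair 3 it exceeded the bottom ratio, which was above 1 for 61 of the 91 genes, and in pair 4 it was close to it. The top ratio of R1 to R3 was 1.15, 0.941, 1.23, 0.925 and 1.05, so in pair 3 it was also slightly above the bottom ratio. Same-numbered libraries of the 2 stages share only a number.

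With 1 library left out at a time, 17 to 65 genes met the rule, the most without bottom R1 replicate 2 and the fewest without bottom R1 replicate 4. All of the 26 genes stayed in at least 22 of the 30 such selections, and 3 stayed in all 30. These were Vigun08g175700, Vigun07g210700 (chromosome 7, 33212157 to 33215797, plus strand, 3 exons, 1317 bases of exon) and Vigun02g018500 (chromosome 2, 6473419 to 6474324, plus strand, 2 exons, 750 bases of exon). Vigun07g210700 was at 4.97, 3.69, 7.26, 3.16 and 3.77 CPM in bottom leaves at R3 and 14, 6.24, 10.1, 22.8 and 20.9 CPM at R1 (R3 over R1: log2 fold change of -1.69 with an SE of 0.31, edgeR adjusted p = 0.0011). Vigun02g018500 was at 5.6, 4.17, 9.89, 4.6 and 3.13 CPM at R3 and 19.6, 7.53, 14.6, 23.1 and 18.5 CPM at R1 (R3 over R1: log2 fold change of -1.60 with an SE of 0.32, edgeR adjusted p = 0.0022). For both, R1 replicate 2 fell inside the R3 range and the other R1 libraries stood above it.

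The genes shared no place in the genome. They lay on 10 of the 11 chromosomes, 6 on chromosome 3, 4 each on chromosomes 4 and 5, and none on chromosome 1, which holds 9.36% of the other genes of the rule. Chromosomes 3, 4 and 5 hold 16.9%, 5.83% and 9.87% of those other genes. The closest pair of the 26, on chromosome 6, was 70 steps apart in gene order. At the median the gene models were shorter and had fewer exons than the other genes of the rule. The median exon length was 1434.5 bases (731 to 3533), beside 2033 bases. The median number of exons was 3 (1 to 13), beside 6. A single exon made up 5 of the 26 models (6.56% of the other genes). The exons of 2 models, Vigun03g347500 and, named here after its overlap was seen, Vigun05g203500, overlap those of another model, and how reads from near-identical copies were assigned is not known, which leaves counts of such copies uncertain. The median level was 50.3 CPM over 30 libraries (6.62 to 335), and 21 of the 26 were under 100 CPM.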

How the data were processed

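Leaf polyA RNA of 30 libraries was sequenced after MagMAX extraction and Kapa HyperPrep library construction, per the labels' protocols. The authors deposited raw counts per gene model, and their tools included HISAT2, featureCounts and DESeq2, per the submitters' processing notes. The sources used here give no genome build or strand setting. The deposited table of normalized counts was not used here. All count columns matched a sample label (0 unmatched). Depth was 10490354 to 17420944 counts per library, which limits precision at low counts.

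The rule on CPM was applied to column totals. Tests used the deposited counts in edgeR 4.0.16 (R 4.3.3): filterByExpr by group (20284 genes), TMM scaling, all 6 groups in 1 quasi-likelihood fit with 24 residual degrees of freedom, and Benjamini-Hochberg adjustment over all genes. SE is the absolute log2 fold change over the square root of F. Exons are merged intervals of the deposited table. Fits were tested on simulated data. The alternatives were DESeq2 1.42.0, other scaling, no filter, a replicate block, fits of fewer groups, and leaving out libraries. Calls in R3 versus R1 within middle and top leaves, selections without a replicate number, the within-stage block for stage differences, and middle ratios and correlations without single libraries, were added after seeing the data. The members and lists were chosen with earlier results of these data known.

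Without product names (0 identifiers matched the RefSeq table of assembly ASM411807v2), named genes were at most 2 per direction and comparison, those with the largest fold change among called genes without overlap, and the 2 most abundant. Gene lists and cell type markers by product name were not analysed here.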

Additional observations from a re-analysis of the deposited data

Results flagged for a closer look

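Among 78 sets of 5 libraries screened (12 named genes in 6 groups, and the summed level in 6 groups), 6 held a single library whose gap to the nearest other exceeded Dixon's 95% critical value of 0.71. Chance gives about 1 in 20 for sets not picked by their values. Some of the 12 genes were named after their values were seen, so this rate does not hold for them. In bottom leaves at R3, replicate 4 stood highest for Vigun04g172900 at 251 CPM (the others 168 to 192 CPM), for Vigun03g048700 at 33.6 CPM (the others 2.73 to 7.19 CPM) and for Vigun04g031600 at 98.2 CPM (the others 39.0 to 52.1 CPM). Replicate 2 of the same group stood highest for Vigun05g008800, at 280 CPM, with the others at 126 to 170.2 CPM. Vigun03g048700 was at 61.7 CPM in top R1 replicate 1, against 28.7 to 37.9 CPM in the others. Vigun04g031600 was at 309 CPM in middle R1 replicate 2, against 116 to 157 CPM in the others.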

How the results depend on the processing

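The number of genes that met the rule was 26. It was 29 with TMM-scaled CPM, of which 20 were among the 26, and 23 and 35 with pseudocounts of 1 and 0.1. It moved to 47 with medians in place of means (14 of the 26 kept), 165 and 1 with a fall of at least 2 and 4, and 8 with the narrower planned band. Leaving out 1 library gave 17 to 65, and leaving out a replicate number 18 to 91, with 51 for number 2. The count called in bottom leaves was 14 in a fit restricted to the 2 groups and 21 to 26 without single libraries. Of all genes, 3.64% and 5.11% to 9.48% were called lower in these fits. For top versus middle leaves it was 10 at R1 and 0 at R3 in such a fit, with 0 to 3 at R1 and 0 to 11 at R3 without single libraries. Over those single libraries left out, 3.41% to 8.79% of all genes were called higher at R1 and 0.323% to 6.87% at R3. For top versus bottom leaves at R1 it was 15 to 21, and 0 to 1 and 0 for the stages in middle and in top leaves. Of all genes, 19.3% to 22.5% were called higher and 17.2% to 20.9% lower for top versus bottom leaves. For the stages in middle leaves, 0.131% to 3.28% were called higher and 0.185% to 3.54% lower. In top leaves these shares were 0.195% to 3.58% and 0.224% to 3.86%. The difference of stage effects between bottom and middle leaves was called for 1 gene on library size alone and 1 with DESeq2, and for 0 to 1 without single libraries. All genes called lower in these fits were 0.00493%, 0.00986% and 0% to 0.00487%. Between bottom and top leaves it was called for 2 genes with DESeq2 size factors, 1 in a fit restricted to the 4 groups, 16 with DESeq2 and 0 to 14 without single libraries. Here 0.0789%, 0.00999%, 1.57% and 0% to 1.15% of all genes were called lower. On library size alone the median of all genes moved to -0.18 (log2) for the stages in top leaves, -0.14 for top versus bottom at R1 and 0.15 for bottom against top. The log2 fold change of Vigun05g008800 for top versus bottom leaves at R1, never called, was -0.32 and turned to 0.13 without bottom R1 replicate 1 (-0.54 to 0.13 over single libraries left out). The calls of Vigun03g347500 and Vigun05g164600 in bottom leaves ended in a fit restricted to these 2 groups (edgeR adjusted p = 0.077 and 0.058). The causes were not tested.

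Same-numbered libraries deviated together in all 5 pairs (correlation over 0.1) only between bottom and middle leaves at R1, and the numbers were not taken to pair samples in the other group pairs. Bottom and middle leaves at R1 meet in a term of the rule and in the difference of stage effects, for which a replicate block within stage, added after seeing the data, called 0 genes against middle leaves and 3 against top leaves. Of all genes, 0% and 0.153% were called lower in that fit. With the replicate block, 23 genes were called lower in bottom leaves (8.76% of all genes). For top versus middle leaves, 2 were called higher at R1 and 6 at R3 (7.77% and 4.64%). For top versus bottom at R1, 18 were called higher and 1 lower (22.5% and 21.5%). For the difference of stage effects, 0 were called against middle and 1 against top leaves (0% and 0.00493% lower). For the stages, 0 were called in middle leaves (1.58% of all genes higher, 2.06% lower) and 0 in top leaves (0.853% and 0.873%). With the replicate block, Vigun03g048700 was called in bottom leaves (edgeR adjusted p = 0.032), while the calls of Vigun07g287000 in bottom leaves (0.065) and of Vigun03g347500 for top versus middle at R3 (0.051) ended. With the replicate block within stage, 3 genes were called higher and 1 lower for top versus middle at R1 (8.72% and 5.38% of all genes). At R3, 10 were called higher and 0 lower (5.28% and 2.86%). For top versus bottom at R1, 18 were called higher and 1 lower (23.7% and 21.7%). Depth limits most the weakly expressed genes, whose lowest library held 17 counts.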
